A study of Mus musculus with 2 samples.

Results

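The Myc and Mycn loci were examined as 3 of the 37310 genes of GENCODE M1: Myc and its neighbour Pvt1 on chromosome 15, and Mycn on chromosome 12 of mm9. Each region was taken as the gene, or the gene pair, plus 500 kb on each side. The Myc and Pvt1 region, chr15:61316946-62709651, spans 1.39 Mb and the Mycn region, chr12:12442902-13448720, spans 1.01 Mb. A deposited CTCF peak was counted as a member of a region when its summit lay in it, which gave 7 peaks in each region, 14 of the 33788 peaks of the list. The members were chosen by position and not by their height.

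The study mapped CTCF by ChIP-seq in R1/E mouse ESCs that express CTCF with a C-terminal LAP tag, which contains GFP, from a stably integrated BAC. These cells were BAC transfectants that were selected and sorted for GFP, and the tagged CTCF came in addition to the endogenous protein. One library was made from this line with a goat antibody against eGFP and 1 with goat IgG. The labels call the second an isotype control and also input DNA, and it is called the IgG library here. Both libraries share the cells, the medium with LIF, the formaldehyde fixation and the sonication. There is 1 library of each kind and no replicate, so every interval and p-value below covers counting error between these libraries only. Depth was 8391191 tags for CTCF and 7988889 for IgG, each tag 35 bp long and none repeated at the same position and strand. No RNA was measured in these libraries, so neither the ESC label nor the expression of the genes was checked.

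Myc and Mycn encode basic helix-loop-helix transcription factors that pair with Max and drive growth and proliferation. Both are proto-oncogenes, and in mouse ESCs Myc acts downstream of LIF and supports self-renewal. Pvt1 is a long noncoding RNA gene that lies just past Myc in the same direction, within a wide stretch that is poor in genes and holds distant enhancers of Myc in many tissues. CTCF is a zinc finger protein that recognises a long asymmetric motif, halts cohesin and thereby anchors chromatin loops, preferentially where a pair of motifs point toward each other.

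Myc (ENSMUSG00000022346.8) lies on the plus strand at chr15:61816946-61821929. Pvt1 (ENSMUSG00000072566.3) is annotated as a lincRNA of 340 kb on the same strand at chr15:61869542-62209651. Mycn (ENSMUSG00000037169.8) lies on the minus strand at chr12:12942902-12948720. Distances below are counted from the outermost annotated start of Myc or Mycn along the direction of the gene, so a negative or upstream distance lies before the start. A motif is said to point along the gene when its G-rich core, read 5′ to 3′, lies on the strand of the gene.

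The sites closest to the starts differ in place: the nearest summit to Myc lies 1.94 kb before its start, and the nearest to Mycn lies 2.77 kb past its start, in an intron of Mycn. Their summit windows are printed first because they carry the arrangement at the starts. Each is 300 bases of mm9 on the strand of the motif, with the best match to the CTCF matrix in capitals, and for both genes this is also the strand of the gene.

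Myc, 1.94 kb upstream, chr15:61814854-61815153, plus strand: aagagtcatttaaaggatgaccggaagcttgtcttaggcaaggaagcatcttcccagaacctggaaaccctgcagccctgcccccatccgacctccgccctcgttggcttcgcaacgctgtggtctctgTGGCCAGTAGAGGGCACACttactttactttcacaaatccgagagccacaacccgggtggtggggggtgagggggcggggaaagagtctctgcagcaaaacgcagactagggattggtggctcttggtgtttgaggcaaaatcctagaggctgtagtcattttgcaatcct
Mycn, 2.77 kb past the start, chr12:12945805-12946104, minus strand: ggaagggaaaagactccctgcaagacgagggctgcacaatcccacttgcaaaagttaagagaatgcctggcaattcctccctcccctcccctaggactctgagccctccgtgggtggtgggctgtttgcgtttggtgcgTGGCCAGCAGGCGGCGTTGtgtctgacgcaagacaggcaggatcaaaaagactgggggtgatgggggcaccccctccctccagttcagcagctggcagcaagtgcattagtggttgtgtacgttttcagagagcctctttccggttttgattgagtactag

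Both windows were richer in G and C than most summits. Within 150 bp of the summit the GC content was 54.5% at the Myc site and 56.1% at the Mycn site, against a median of 46.2% over all summits (quartiles 42.2 and 50.5). The windows held 10 and 9 CpG, against a median of 3 (quartiles 2 and 5). The motif of the Mycn site itself holds 2 CpG and that of the Myc site 0.

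The other matches that the results turn on are printed with 20 bases on each side, again on the strand of the motif, to show how the sites upstream of each gene and in the gene-poor stretches compare with the consensus. The consensus is the most frequent base at each of the 19 positions of the matrix. For the Pvt1 intron, far end means only far from the summit. That match, at chr15:61922892-61922910, lies near the middle of the peak chr15:61922443-61923436.

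Consensus: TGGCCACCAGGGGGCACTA
Myc, 10.2 kb upstream, chr15:61806737-61806795, plus strand: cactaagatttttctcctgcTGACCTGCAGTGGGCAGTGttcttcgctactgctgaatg
Myc, 367 kb upstream, chr15:61450301-61450359, plus strand: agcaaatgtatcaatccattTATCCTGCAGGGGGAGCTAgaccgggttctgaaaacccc
Myc, 429 kb past the start, chr15:62245424-62245482, plus strand: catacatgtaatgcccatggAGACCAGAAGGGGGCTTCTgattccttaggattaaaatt
Pvt1 intron, far end of the peak, chr15:61922872-61922930, minus strand: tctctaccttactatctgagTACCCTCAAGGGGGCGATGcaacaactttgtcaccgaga
Mycn, 67.7 kb upstream, chr12:13016452-13016510, minus strand: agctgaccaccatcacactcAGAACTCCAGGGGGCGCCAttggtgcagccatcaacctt
Mycn, 273 kb upstream, chr12:13221874-13221932, minus strand: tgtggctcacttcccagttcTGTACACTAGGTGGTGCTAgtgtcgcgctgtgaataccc
Mycn, 160 kb past the start, chr12:12788508-12788566, plus strand: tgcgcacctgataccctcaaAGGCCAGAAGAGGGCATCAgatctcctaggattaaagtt
Mycn, 319 kb past the start, chr12:12629909-12629967, plus strand: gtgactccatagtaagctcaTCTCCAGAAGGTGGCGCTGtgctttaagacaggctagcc

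The motif of the Myc site 1.94 kb upstream matched 14 of the 19 consensus bases, with a match p of 1.3e-08, the best of the 14 summits. That of the Mycn site 2.77 kb past the start also matched 14 bases, with a match p of 5.2e-06. The match p is the chance that a random 19-mer of genomic base composition scores as well against the matrix.

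The deposited height of a summit is the number of tags piled up there, and the score is −10 times the log10 of the MACS p-value against the IgG library. The median height and median score of both regions lay below those of the list, though the median height of the Mycn region lay between the quartiles of the list. The median height was 8 tags in the Myc and Pvt1 region (7 to 19) and 11 in the Mycn region (8 to 33), against 13 over the whole list (quartiles 10 and 17) and 12 in the stretches of at least 500 kb without a protein-coding gene (quartiles 9 and 15). The median score was 72.2 and 72.0, against 117 and 102. The tallest summit of the Myc and Pvt1 region, at 19 tags, is the one 1.94 kb upstream of Myc. In the Mycn region the tallest, at 33 tags, lies 273 kb upstream of Mycn, and the next, at 21, lies inside Mycn.

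**Figure D1:**
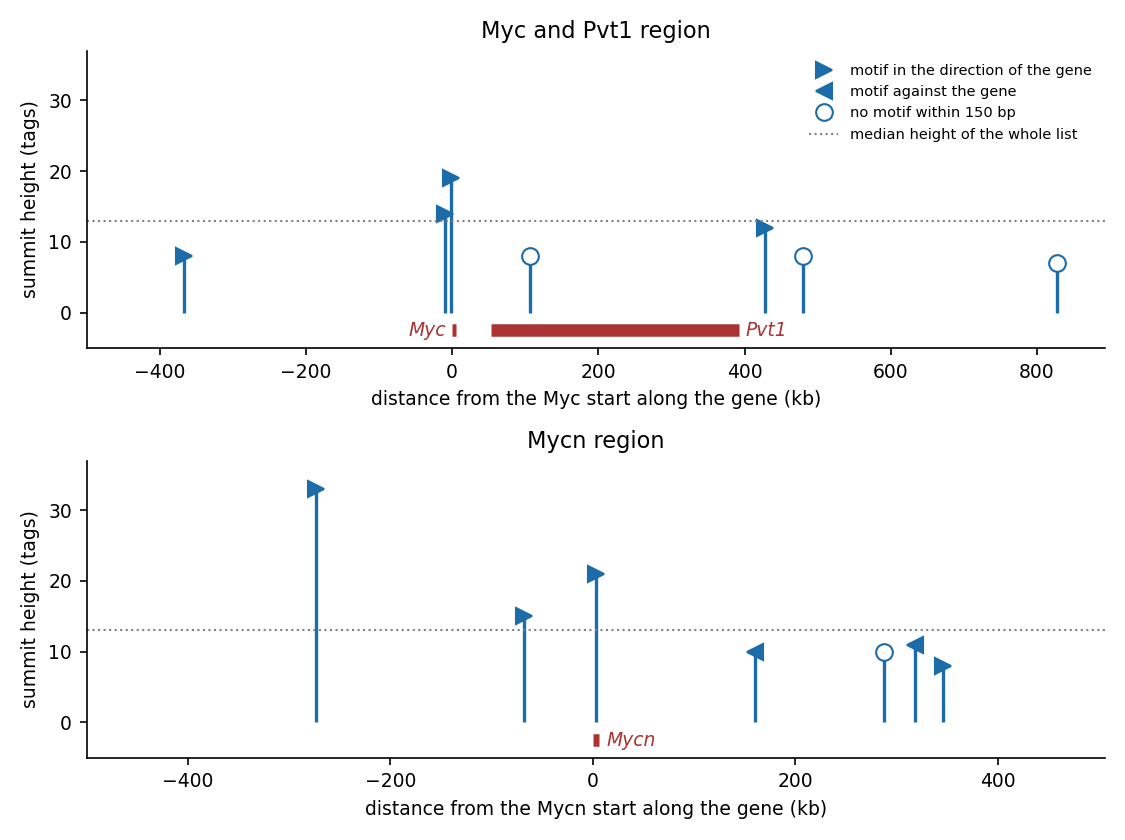
Height of the 14 deposited CTCF summits in tags against the distance from the Myc start (top) and the Mycn start (bottom) along the gene in kb, with the genes as bars under the axis, arrowheads for the direction of the motif, open circles where no motif was found within 150 bp, and the median height of the whole list as a dotted line. The sites of 14 and 19 tags just upstream of Myc and the 3 sites from 273 kb upstream of Mycn to its intron stand above the median of 13, and all 5 motifs there point along the gene.

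Upstream of Myc, 3 summits lie within 500 kb. At the site 1.94 kb upstream (peak chr15:61814510-61815392, score 144, height 19), 21 CTCF and 1 IgG tags lay within 150 bp of the summit. The depth-scaled ratio was 20.0 (exact 95% interval 3.22 to 827), and the exact two-sided binomial test gave an adjusted p of 5.5e-05. This is the lowest adjusted p of the region, and the height exceeded 82.2% of the list.

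At the site 10.2 kb upstream (peak chr15:61806361-61807221, score 106, height 14), 15 CTCF and 3 IgG tags were counted, a ratio of 4.76 (1.35 to 25.7) with an adjusted p of 0.00985 by the same exact test. The centre of the motif lies 4 bp from the summit and matched with a p of 9.4e-07. The 2 sites are 8.23 kb apart, the shortest spacing in either region, and both motifs point along Myc. At the site 367 kb upstream (score 56.9, height 8), 11 CTCF and 0 IgG tags were counted (adjusted p = 0.00176, exact test). This site had a ratio of 3.49 with the IgG library set to a floor of 3 tags, and an exact interval that began at 2.39. Its motif also points along Myc.

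Between the Myc start and the end of Pvt1, 1 summit was deposited. Myc itself holds none, and Pvt1 holds 1 in an intron, 106 kb past the Myc start (peak chr15:61922443-61923436, score 72.2, height 8). There 8 CTCF and 2 IgG tags lay within 150 bp of the summit, and the exact test did not pass (adjusted p = 0.112, ratio 3.81). No match at p 1e-05 lay within 150 bp. The match printed above, at p 1.5e-06, lies in the same peak 353 bp from the summit on the minus strand, so it points against Myc and Pvt1.

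Past Pvt1, 3 summits were deposited, in a stretch with no protein-coding gene up to Gsdmc, 1.79 Mb past Myc. The site 429 kb past the Myc start has the highest score of the region, 159, with a height of 12 and 13 CTCF against 1 IgG tag (adjusted p = 0.00307, exact test), and its motif points along Myc. The peak is 1319 bp wide and holds 48 CTCF and 11 IgG tags. The sites 480 and 827 kb past the start are low, with heights of 8 and 7 and scores of 57.7 and 50.2, the latter close to the lowest deposited score of 50. They held 8 CTCF tags each, against 2 and 1 IgG tags, with adjusted p of 0.112 and 0.0417 by the exact test, and neither peak held a motif at p 1e-05.

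At Mycn, the site in the intron (peak chr12:12945408-12946347, score 162, height 21) lies 1.47 kb from the nearest annotated transcript start of the gene. It held 26 CTCF and 4 IgG tags within 150 bp, a ratio of 6.19 with an adjusted p of 0.00021 (exact test). The centre of the motif lies 1 bp from the summit and points along Mycn. Of the tags within 250 bp, 11 of the 15 plus-strand tags lay before the summit and 11 of the 16 minus-strand tags after it. The summit is placed where tags pile up, so such a split is partly built in and is no evidence of binding. It varied between sites: at 160 kb past Mycn all 5 plus-strand tags lay before the summit, and at 429 kb past the Myc start 4 lay before and 5 after.

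The first site upstream of Mycn lies 67.7 kb before the start (peak chr12:13015976-13016882, score 68.3, height 15). It held 15 CTCF tags and 1 IgG tag, a ratio of 14.3 (2.20 to 601) with an adjusted p of 0.00107 by the exact test. The tags there were split by strand without exception, with 7 plus-strand tags before the summit and 0 after it, and 0 minus-strand tags before and 8 after. The site 160 kb past Mycn had the same full split, with 5 tags on each strand. As said above, such a split is partly built in and is no evidence of binding.

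The next site upstream, at 273 kb (peak chr12:13221312-13222514, score 467, height 33), has the highest score and height of both regions, and it is higher than 98.9% of the list. It lies 34.1 kb from the start of Ddx1, which encodes a DEAD box RNA helicase, nearer than to Mycn. There 39 CTCF and 2 IgG tags lay within 150 bp, a ratio of 18.6. Its peak held a further 2 matches at p 1e-04, and the best one points along Mycn. The peak list has no summit between it and the upper end of the region, which includes the starts of Ddx1 and of Nbas, a gene for a protein of vesicle transport.

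Past Mycn, 4 sites of height 8 to 11 were deposited between 160 and 346 kb from the start. At 160 kb (score 57.9), 10 CTCF and 0 IgG tags were counted, a ratio of 3.17 against the floor of 3, with an exact interval that began at 2.13. At 319 kb (score 72.0), 11 CTCF and 0 IgG tags were counted, a ratio of 3.49 against the floor, with an interval that began at 2.39. These 2 sites hold the best matches among the summits of the region, with p of 3.8e-08 and 4.4e-08, and both point against Mycn.

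The other 2 sites past Mycn were the ones with IgG tags near the summit. At 288 kb (score 61.7), 11 CTCF tags stood against 1 IgG tag, and the match, at p 1.9e-06, lies 163 bp from the summit. At 346 kb, 9 CTCF tags stood against 2 within 150 bp, which did not pass the exact test (adjusted p = 0.0686), and the motif points along Mycn. This site has the highest score of the 4, 113.5, and its whole peak held the most tags of the 4, with 27 CTCF and 4 IgG.

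**Figure D2:**
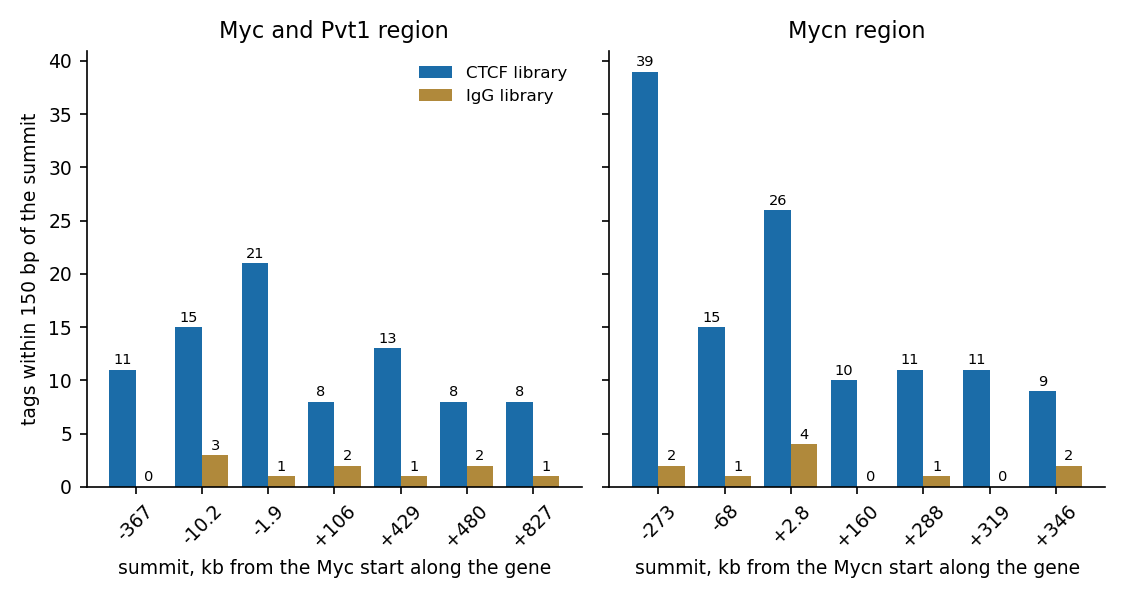
Tags within 150 bp of each of the 14 summits in the CTCF library (blue) and the IgG library (ochre), as counted, with the count over each bar and the sites ordered by distance from the Myc start (left) and the Mycn start (right) in kb. The CTCF library held 8 or more tags at every site and the IgG library at most 4, and the highest bar is the 39 tags at 273 kb upstream of Mycn.

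By the exact binomial test, 5 of the 7 summits of the Myc and Pvt1 region and 6 of the 7 of the Mycn region were called higher in the CTCF library at an adjusted p of at most 0.05, 11 of 14 in all. Over the whole list the same test called 94.9% of 33788 summits. The peaks were called on the same contrast, so this describes how well the counts hold up single sites and is no second line of evidence. The 3 sites that were not called held 8 or 9 CTCF and 2 IgG tags each, too few to pass the test in this window. Over their whole peaks the exact intervals of the ratio lay above 1, at 1.18 to 7.08 in the Pvt1 intron, 1.27 to 52.6 at 480 kb past Myc and 2.24 to 25.3 at 346 kb past Mycn. The peaks were called on this contrast too, so these intervals are no further evidence for the sites. At the called site 288 kb past Mycn the whole peak held 11 against 3 tags, and its interval, 0.922 to 19.5, holds 1. Within 500 bp of the summit 13 of the 14 were called, and 12 when the libraries were scaled by tags outside peaks.

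**Figure D3:**
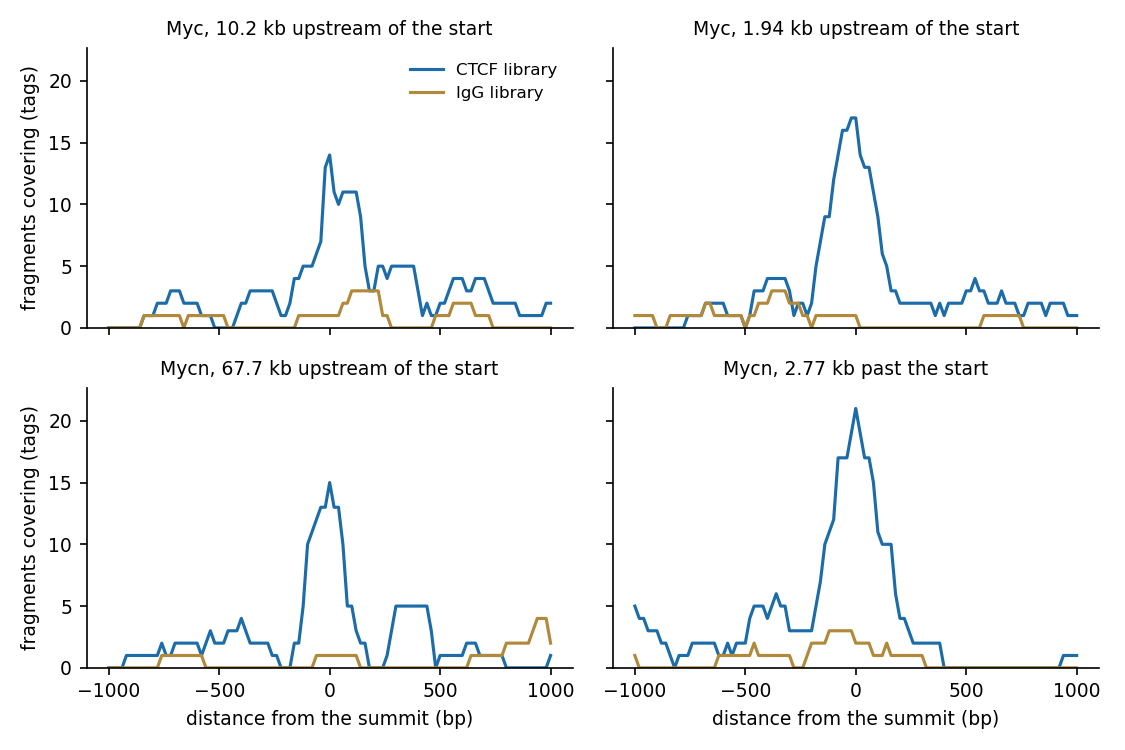
Number of fragments of 185 bp, extended from the tags, that cover each point within 1000 bp of the summit along the plus strand, in the CTCF library (blue) and the IgG library (ochre), at the 2 sites nearest upstream of Myc (top) and at the first site upstream of Mycn and the site in its intron (bottom). The CTCF library is highest at or near each summit, up to 21 fragments in Mycn, with smaller rises beside it at the Myc sites. The IgG library stays at 4 or fewer throughout.

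The starts themselves carry no deposited peak, but within 1 kb of them the CTCF library held more tags than the IgG library. Around the Myc start 15 CTCF and 4 IgG tags were counted, a ratio of 3.57 (1.14 to 14.8). Around the Mycn start 11 CTCF and 0 IgG tags were counted, a ratio of 3.49 against the floor of 3, with an exact interval that began at 2.39. Around the Pvt1 start 7 and 4 tags gave 1.67 (0.424 to 7.76).

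Over all 22367 protein-coding starts the same ratio was 1.69, and over the 20026 starts with no summit within 1.5 kb it was 1.30 (1.29 to 1.31). The interval for Pvt1 holds both values, and the interval for Myc holds 1.69 and 1.30 as well, so the higher level at Myc was not separated from that of other starts at this depth. For Mycn the exact interval began at 2.39, above both pooled values. That interval covers counting error at the Mycn start only. The spread among single starts was not examined, so Mycn is not shown to differ from other starts. Over whole gene bodies the ratio was 2.19 (1.00 to 5.15) in Myc with 23 against 10 tags, 4.22 (2.33 to 8.16) in Mycn with 62 against 14, and 0.821 (0.761 to 0.886) in Pvt1 with 1261 against 1462. The deposited peak inside Mycn holds 37 of its CTCF and 7 of its IgG tags. The Mycn value thus includes a peak called on this same contrast, whereas Myc holds no summit.

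The motifs were then read by direction. In the Myc and Pvt1 region 4 of 7 summits had a match at p 1e-05 within 150 bp, in the Mycn region 6 of 7, and over the whole list 72.6% of the summits on the main chromosomes had one. All 4 in the Myc and Pvt1 region lie on the plus strand, along both genes, so all 3 neighbouring pairs are tandem. In the Mycn region 4 lie on the minus strand, along the gene, and 2 on the plus strand, which gives 3 tandem pairs, 1 convergent and 1 divergent.

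The convergent pair is that of the site 160 kb past Mycn and the site in its intron, whose motifs point toward each other across 157 kb, an interval that holds the lincRNA genes Gm17337 and 4930519A11Rik and the gene annotated as Rpl36-ps3. Over the whole list 50.0% of the neighbouring pairs were tandem, 24.97% convergent and 24.98% divergent. With 3 and 5 pairs the regions cannot be told from these shares. The motif was also searched over whole peaks, an alternative added after the data were seen. The minus-strand match in the Pvt1 intron then made 1 convergent pair with the site 1.94 kb upstream of Myc, and Myc lies between the 2 motifs. That match lies 353 bp from a summit that did not pass the exact test (adjusted p = 0.112), and the planned search gave 0 convergent pairs near Myc. The whole-peak search gave 2 convergent pairs in the Mycn region.

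Summits were sparse in both regions. The Myc and Pvt1 region held 5.03 peaks per Mb and the Mycn region 6.96, against 13.2 over the sequenced genome and 3.53 in the stretches of at least 500 kb without a protein-coding gene. Within 500 kb of the gene lay 6 summits for Myc, 7 for Pvt1 and 7 for Mycn, against a median of 21 over all protein-coding genes (quartiles 11 and 34). Of those genes, 13.5% had 6 or fewer and 15.7% had 7 or fewer.

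The spacing around Myc was uneven. Going along the chromosome, neighbouring summits lay 356, 8.23, 108, 322, 51.1 and 348 kb apart, and the 108 kb spacing crosses Myc and enters Pvt1. The 322 kb spacing covers the rest of Pvt1 from its intron site and ends past the gene. The 3 longest spacings exceeded 95.7 to 96.3% of all spacings of the list, and 84.7 to 86.7% of those within stretches of at least 500 kb that hold no protein-coding gene, called gene-free below although they can hold noncoding genes such as Pvt1.

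Beyond the region, the next summit upstream of the 367 kb site lay a further 218 kb away. Past the site at 827 kb the next lay a further 840 kb away, a spacing longer than 99.0% of all. The stretches without a protein-coding gene run 1.06 Mb from A1bg to Myc and 1.79 Mb from Myc to Gsdmc, and the latter holds Pvt1, the pseudogene H2afy3, a miRNA gene and a snoRNA gene.

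Around Mycn the spacing was shorter, at 27.5, 30.9, 128, 157, 70.5 and 205 kb along the chromosome. Within gene-free stretches the median spacing was 79.2 kb over 4 intervals, against 322 kb over 5 intervals in the Myc and Pvt1 region. Over all neighbouring summits of the list the median was 25.6 kb (quartiles 8.29 and 69.1), and in gene-free stretches of at least 500 kb it was 68.6 kb (quartiles 18.9 and 208). In gene-free stretches of any length it was 12.3 kb (quartiles 3.87 and 39.4), and the medians of both regions lay above that upper quartile. A spacing was counted only when both summits lay in the same stretch, so short stretches can give only short spacings. That last comparison therefore depends on the length of the stretches. All 5 intervals near Myc lie in stretches of at least 500 kb, and their median lay above the upper quartile of 208 kb. Near Mycn 3 of the 4 do, of 27.5, 30.9 and 128 kb, with a median of 30.9 kb, between the quartiles, and the fourth, of 205 kb, lies in a stretch of 277 kb.

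**Figure D4:**
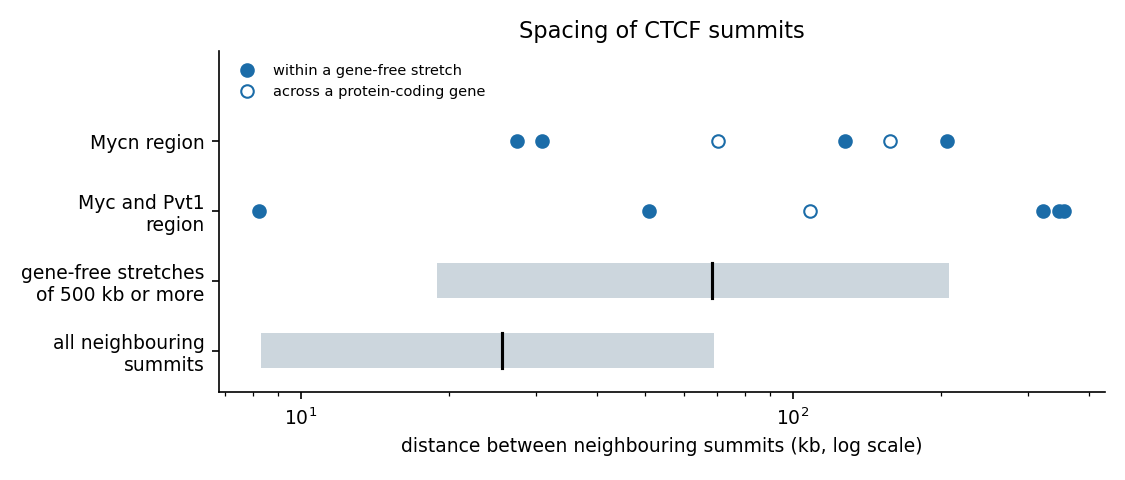
Distance between neighbouring CTCF summits in kb on a log scale, with grey bars from the lower to the upper quartile and a black line at the median for all neighbouring summits and for stretches of 500 kb or more without a protein-coding gene (gene-free), and 1 point for each of the 6 intervals of each region, open where it crosses a protein-coding gene. The Myc and Pvt1 region holds the shortest interval, 8.23 kb, and the 3 longest, from 322 to 356 kb.

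Between the peaks the CTCF library lay below the IgG library in both regions. Outside peaks 4528 CTCF and 5907 IgG tags lay in the Myc and Pvt1 region, a depth-scaled ratio of 0.730 (0.702 to 0.759), and 3341 and 3975 in the Mycn region, 0.800 (0.764 to 0.838). Over the whole genome outside peaks the ratio was 0.897, above both intervals. In the gene-free stretches of at least 500 kb it was 0.732 (0.731 to 0.734), which lies within the interval of the Myc and Pvt1 region and below that of the Mycn region. These intervals cover counting error only. The spread of the ratio among single regions was not examined, so neither region is shown to differ from others.

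The IgG library held 4.26 and 3.98 tags per kb in the regions, against 3.12 over the genome. The share of CTCF tags in peaks was 3.50% and 5.70%, against 11.5% of the library. In peaks the ratio was 5.04 (3.42 to 7.65) with 164 against 31 tags in the Myc and Pvt1 region, and 7.40 (4.90 to 11.6) with 202 against 26 in the Mycn region, beside 8.73 over the list. The interval of the Myc and Pvt1 region ends below the value of the list and that of the Mycn region holds it. Here too the spread among regions was not examined.

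**Figure D5:**
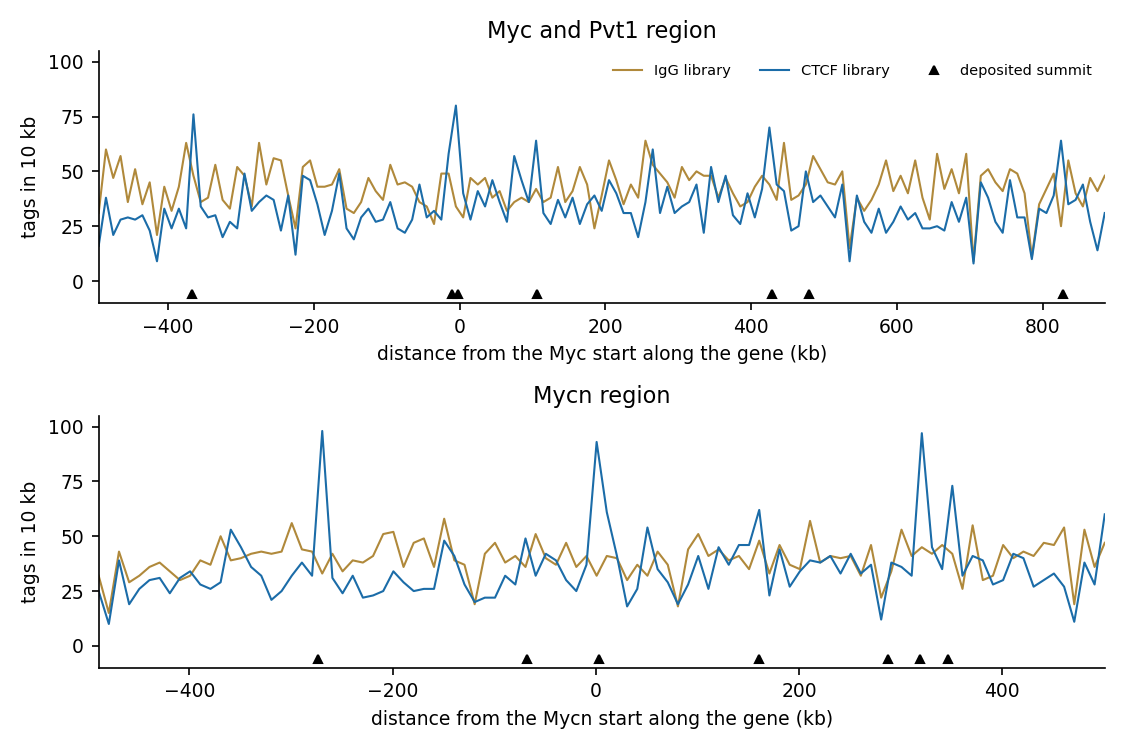
Tags in windows of 10 kb, as counted and not scaled, in the CTCF library (blue) and the IgG library (ochre) against the distance from the Myc start (top) and the Mycn start (bottom) along the gene in kb, with deposited summits as triangles. The CTCF library has a median of 32 tags in both regions and the IgG library 43 and 40.5, and the CTCF library reaches 80 just upstream of Myc and 98, 97 and 93 in the windows centred at -269, 321 and 0.818 kb from the Mycn start.

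Scanned in windows of 300 bp without regard to the peak list, 0 of 3795 windows with a tag in the Myc and Pvt1 region and 2 of 2809 in the Mycn region were called higher in the CTCF library by the exact binomial test at an adjusted p of at most 0.05, against 0.171% of 6227636 windows of the genome. Both lie in deposited peaks. Outside peaks, 4 and 5 windows had an unadjusted p under 0.05 with CTCF higher, and 24 and 18 with IgG higher. No other tool was run on the windows. The sites near Myc, of 8 to 21 CTCF tags, were not called in this scan, so a window that was not called is not shown to lack CTCF.

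Strong matches to the matrix were more frequent than peaks. At p 1e-06 there were 14 in the Myc and Pvt1 region and 28 in the Mycn region, or 10.1 and 27.8 per Mb, against 35.1 per Mb over the genome. Of these, 2 and 3 lay in peaks, against 24.7% of 89792 over the genome.

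The matches outside peaks still drew CTCF tags. Within 150 bp of the 12 matches of the Myc and Pvt1 region 23 CTCF and 8 IgG tags were counted, a ratio of 2.74 (1.18 to 7.08). Around the 25 of the Mycn region 71 and 20 tags gave 3.38 (2.03 to 5.86). Both intervals hold the 3.69 found over all 67627 such matches of the genome.

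The highest counts at such matches in the Mycn region were 13 CTCF and 2 IgG tags 324 kb past the Mycn start, 10 and 2 tags 502 kb past it, and 9 and 0 tags at a plus-strand match 13.1 kb past the start, at p 1.1e-07. Near Myc the highest were 6 and 0 tags at a minus-strand match 80.1 kb past the start, inside Pvt1, and 6 and 2 tags at -297 kb. The best match of either region, at p 3.7e-09, lies at -132 kb from the Mycn start, and 4 CTCF tags stood against 1 IgG tag there.

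The partners and relatives of Myc and Mycn were examined as a list of 14 genes of the Myc network, Myc and Mycn included. The members are Max, the shared partner, the Mxd, Mxi1 and Mnt repressors that compete for it, Mga, the Mlx group, Mycl1 and Zbtb17, which encodes the Myc-binding zinc finger protein Miz1. A summit lay within 5 kb of an annotated start in 9 of the 14, Myc and Mycn among them, against 31.4% of all 22367 protein-coding genes. The contrast depends on the distance: within 1 kb it was 2 of 14 against 11.6%, and within 25 kb 13 of 14 against 66.5%. The list was not tested as a set. The nearest summit lay 0.154 kb from a start of Mycl1 and 1.91 kb from one of Mxd1, and 18.4 kb from the nearest start of Max. Heights of the nearest summits ran from 8 to 24 tags, with Myc at 19 and Mycn at 21. Within 500 kb of the gene the list had a median of 30 summits (6 to 51), and Myc, with 6, and Mycn, with 7, had the fewest.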

How the data were processed

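CTCF ChIP-seq of the BAC-tagged R1/E ESC line was analysed from 1 library made with the GFP antibody and 1 made with IgG. The tag files that the authors deposited list each aligned tag on mm9 as a raw count of 1. The aligner is not given in the sources used here. Peaks were called by the authors with MACS 1.4 for CTCF against IgG, and the deposited score of a peak is the MACS p-value as −10 log10. The deposited signal of a summit is its pileup height in tags. The lowest deposited score is 50, a p-value of 1e-05.

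The depth was 8391191 tags (CTCF) and 7988889 tags (IgG). Before counting, each tag was shifted 92 bp inward, given the fragment length of 185 bp found at the 1000 peaks of highest score, and ratios were scaled by all tags. Ratios carry exact 95% binomial intervals. Summits were tested with a two-sided exact binomial test within 150 bp and Benjamini-Hochberg adjustment over all 33788 summits, windows of 300 bp likewise over all windows with a tag. Both tests compare 2 libraries and not conditions. Where the IgG library held no tag, the ratio is given with that library set to 3 tags, beside the lower end of the exact interval.

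The CTCF matrix was built from 192 sequences of a supplementary table of the study, turned to 1 strand, and its thresholds were exact for the matrix. Sequence was that of NCBI m37 (mm9) and genes those of GENCODE M1. No tag lay past a chromosome end. Sites named in full were the nearest 5 summits upstream and 2 downstream of each start, the 5 tallest and 2 lowest of each region, those inside the genes and those that border the longest spacing, which covers all 14. The members, lists and tests were chosen with earlier results of these data known. Scripts were tested on simulated data. The tools were scipy 1.17.1, numpy 2.4.6, matplotlib 3.10.9, pandas 2.3.3 and Python 3.11.15. Alternatives varied the score threshold, the flank, the window, the scaling, the tag position, the motif search and the distance to the start.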

Additional observations from a re-analysis of the deposited data

How the results depend on the processing

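Single sites held 8 to 39 CTCF tags, and this depth is the main limit. No paired analysis was possible because each antibody has 1 library, so no replicate was left out either. Of 49 alternatives, 33 kept the value inside the main interval or, for counts and spacings, within 1.5 times of it. With a score of at least 100, the peaks fell to 3 in each region, and all 3 summits had a motif in each. The Mycn region then had 0 convergent pairs, and 1 spacing of 8.23 kb was left near Myc and none near Mycn. With a flank of 1000 kb the regions held 11 and 21 peaks (4.60 and 10.5 per Mb), and with 250 kb the Mycn region held 3 (5.93 per Mb). Searched within 50 bp of the summit, 2 summits of each region had a motif. Over whole peaks, added after the data were seen, there were 1 convergent pair near Myc and 2 near Mycn. Within 150 bp of the summits the tag ratio in the Myc and Pvt1 peaks was 7.997. Scaled by tags outside peaks, the ratio between the peaks was 0.813 near Myc and 0.892 near Mycn, still below 1. Within 1 kb of a start, 2 of the 14 network genes had a summit, against 11.6% of all genes. With tags left at their ends, the first site upstream of Myc had 0 IgG tags and gave no ratio. The cause of these changes was not tested, other than that a stricter score, a narrower search or a shorter flank leaves fewer sites.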
